A study of Arabidopsis thaliana with 12 samples.

Results

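The 9 Arabidopsis ATG8 genes, ATG8A to ATG8I, and the autophagy receptor gene NBR1 were followed through the leaves of wild type and of the chlorotic mutant melinoe. These 10 genes were chosen by family membership and found by locus code, with earlier results of these data known, among the 25169 genes listed in the deposited tables. All 10 were listed, passed the low-count filter and carried whole read counts in every library. NBR1 and ATG8H rose in each class of melinoe leaf and rose most in white leaves, by 1.86-fold and 3.27-fold over wild type. ATG8A also rose in each class, while ATG8F, the most abundant ATG8 transcript in wild type, fell in white leaves to 0.798 of its wild-type level, a fall that depended on how the libraries were scaled.

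Autophagy delivers cytoplasmic material to the vacuole in double-membraned vesicles called autophagosomes. ATG8 is a ubiquitin-like protein that is trimmed by the protease ATG4 behind a glycine near its end and is then joined to the membrane lipid phosphatidylethanolamine, so that it coats the growing vesicle. NBR1 is a selective receptor that binds ATG8 and ubiquitinated cargo, is known in plants for the clearance of protein aggregates under stress, and is itself broken down with its cargo. In leaves, autophagy is known for recycling chloroplast material during carbon starvation, darkness and senescence.

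Rosette leaves came from wild-type Col-0 and from melinoe, a mutant made with ethyl methanesulfonate that carries a lesion in FMN/FHY (At4g21470), an enzyme of flavin metabolism with riboflavin kinase and FMN hydrolase activities. The mutant was sampled as green, green-white and white leaves, wild type as 1 class of leaf, and each of the 4 groups held 3 libraries. All plants grew on medium with 1% sucrose for 2 weeks and then on soil, at 22 °C under 16 h of light and 8 h of dark. The labels name a single mutant line and give no age at harvest. They call the replicates biological without saying how many plants went into each, so the p-values describe only the variation among these libraries.

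Each library held between 25795702 and 26760055 estimated counts in all, and the spread within groups was small, with a common biological coefficient of variation of 0.0272. Small differences therefore passed the test, and sizes are given beside calls. FMN/FHY transcript itself differed from wild type by −0.07 ± 0.05, 0.02 ± 0.05 and 0.07 ± 0.05 on the log2 scale in green, green-white and white leaves (fit SE; edgeR adjusted p = 0.23, 0.73 and 0.19). White leaves were called above green leaves for this gene, at 0.15 ± 0.05 (0.011). The summed level of 5 mesophyll marker genes was 37800 to 38700 CPM (library-scaled counts, with TMM factors, which are set so that most genes do not change on balance) in the wild-type libraries, 37300 to 40100 in green leaves, 22600 to 23100 in green-white leaves and 16400 to 16600 in white leaves, with no marker at 0. The 5 vascular markers summed to 314 to 330 CPM in wild type, 239 to 246 in green leaves, 224 to 232 in green-white leaves and 140 to 144 in white leaves. Again none was at 0. Their median log2 fold change over wild type was −2.18, −0.86 and −1.65 in green, green-white and white leaves. For the mesophyll markers the median was −0.18, −0.97 and −1.4 in the same order. The 5 epidermis and trichome markers summed to 919 to 948 CPM in wild type, 525 to 531 in green leaves, 661 to 670 in green-white leaves and 662 to 677 in white leaves, and the 5 guard cell markers to 71.8 to 72.3, 73.2 to 75.2, 47.6 to 48.9 and 55.1 to 58.1 CPM in the same order. Of 5 root markers 2 were listed, 1 of them at 0 in wild type, and they summed to 17.9 to 24.2 CPM over all groups. The 5 flower markers summed to 14.7 to 16.1 CPM in wild type and 3.16 to 4.26 in green leaves. In green-white leaves they summed to 9.94 to 10.4 CPM and in white leaves to 17.0 to 18.5. The part of these shifts in the values of ATG8 and NBR1 was not tested. In whole leaves, fewer cells of a type and less marker RNA per cell cannot be told apart, so the sums do not measure cell numbers.

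The ends of the ATG8 coding sequences show how the 9 genes differ near the site where ATG4 acts. The last 36 bases of each, stop codon included, are given 5′ to 3′ on the coding strand from the RefSeq annotation of TAIR10.1, with the codon of the last glycine in capitals.
ATG8A: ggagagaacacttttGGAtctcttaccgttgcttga
ATG8B: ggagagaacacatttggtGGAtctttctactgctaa
ATG8C: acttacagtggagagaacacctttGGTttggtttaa
ATG8D: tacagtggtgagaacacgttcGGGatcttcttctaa
ATG8E: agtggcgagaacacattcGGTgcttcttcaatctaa
ATG8F: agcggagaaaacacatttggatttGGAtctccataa
ATG8G: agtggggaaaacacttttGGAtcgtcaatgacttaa
ATG8H: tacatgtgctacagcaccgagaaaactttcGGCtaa
ATG8I: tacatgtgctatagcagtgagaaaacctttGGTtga
In ATG8H (chr3:1955219-1955254, minus strand) and ATG8I (chr3:5274075-5274110, minus strand) the glycine codon is followed directly by the stop. The other 7 genes carry further codons after their last glycine codon, from 2 in ATG8C and ATG8F to 5 in ATG8A. In ATG8B and ATG8F another glycine codon, ggt and gga, closely precedes the marked one. The marked codon there need not be the one behind which ATG4 cuts, and more codons may follow the cut. ATG8H and ATG8I therefore form a subgroup by sequence, and their coding sequences were identical at 66.1% of aligned bases. The closest pairs were ATG8E with ATG8G and ATG8B with ATG8C, each at 77.5%, and the longest run of identical bases was 53, between ATG8A and ATG8B. The genes lie on 4 chromosomes, with ATG8A, ATG8B, ATG8F and NBR1 on chromosome 4 and ATG8G, ATG8H and ATG8I on chromosome 3.

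Levels of different genes were compared per length, in TMM-scaled CPM per kilobase of the longest annotated transcript. In wild type ATG8F stood highest at 136 ± 1.36 CPM per kb (SD, n = 3), followed by NBR1 at 124.5 ± 2.11 and ATG8E at 78.8 ± 3.20. ATG8I followed at 46.7 ± 1.51 CPM per kb, then ATG8A at 26.8 ± 2.90, ATG8C at 25.8 ± 1.49 and ATG8D at 24.0 ± 0.975, with overlapping libraries between neighbours among the last named. ATG8B at 12.2 ± 0.809 and ATG8H at 11.2 ± 0.695 CPM per kb also overlapped, and ATG8G was lowest at 6.31 ± 0.0765.

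In white leaves NBR1 stood first at 231 ± 1.69 CPM per kb, above ATG8F at 109 ± 3.27 and ATG8E at 89.8 ± 1.12. ATG8A had moved up to 46.5 ± 1.27 CPM per kb, above ATG8I at 38.4 ± 2.39 and ATG8H at 36.5 ± 0.839, whose libraries overlapped each other. ATG8D stood at 25.5 ± 1.67 CPM per kb, ATG8C at 18.7 ± 0.595, ATG8B at 17.01 ± 0.255 and ATG8G last at 5.38 ± 0.305, without overlap between neighbours. NBR1 was also first in green leaves, at 162 ± 0.366 CPM per kb, and in green-white leaves, at 213 ± 4.78. ATG8H rose in this order from position 9 in wild type to 8, 6 and 6 in green, green-white and white leaves, with libraries that overlapped those of ATG8A in green-white leaves. The order rests on the transcript length used: by the TPM, a per-length unit, as deposited, the group means of the authors put ATG8F (228 TPM) above NBR1 (189 TPM) in green leaves and ATG8H (82.8 TPM) above ATG8I (74.0 TPM) in white leaves.

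The make-up of the ATG8 pool differed between the groups. Shares of the summed ATG8 CPM per kb within a library do not depend on how libraries are scaled to each other, and no test was run on them. The share of ATG8H was 2.76 to 3.21% in the wild-type libraries, 3.72 to 3.98% in green leaves, 6.93 to 8.25% in green-white leaves and 9.37 to 9.48% in white leaves, with no overlap between groups. ATG8A held 7.26 ± 0.628% in wild type and 12.02 ± 0.430% in white leaves. The share of ATG8F was 36.6 to 37.7% in wild type, 37.3 to 38.8% in green leaves, 30.99 to 32.01% in green-white leaves and 27.5 to 28.5% in white leaves, so wild type and green overlapped and both paler classes lay below them. ATG8C held 7.01 ± 0.264% in wild type against 4.85 ± 0.132% in white leaves, ATG8I 12.7 ± 0.673% against 9.93 ± 0.448%, and ATG8E 21.4 ± 0.427% against 23.2 ± 0.516% (SD, n = 3 throughout). From the authors' mean TPM, which rests on other lengths, ATG8H took 3.20% in wild type and 9.97% in white leaves, and ATG8F 36.3% and 27.2%.

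**Figure D1:**
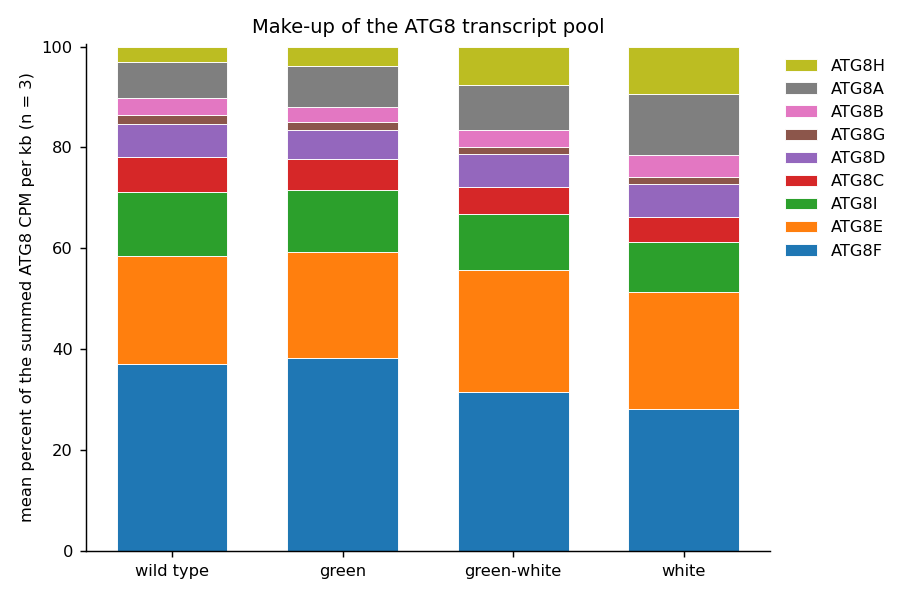
Mean share of each ATG8 gene in the summed ATG8 CPM per kb, in percent (y axis), for the 4 leaf groups (x axis), as stacked bars over 3 libraries each. The ATG8H and ATG8A segments at the top widen from wild type to white leaves, to 9.44% and 12.02%, and the ATG8F segment at the base narrows from 37.0% to 28.1%.

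NBR1, the receptor, was measured at 348, 339 and 337 CPM in the wild-type libraries, 444, 446 and 445 in green leaves, 592, 570.1 and 593 in green-white leaves and 638, 633 and 629 in white leaves. The 4 groups did not overlap, and the order was wild type, green, green-white, white. Over wild type NBR1 rose by 0.38 ± 0.03 on the log2 scale in green (edgeR adjusted p = 9.6e-14), 0.78 ± 0.03 in green-white leaves (4.1e-22) and 0.89 ± 0.03 in white leaves (5.8e-24). The step from green-white to white was small, at 0.11 ± 0.03, and was called (edgeR adjusted p = 3.3e-04).

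NBR1 transcript was also higher against its partners. The ratio of NBR1 to the summed ATG8 level, both in CPM per kb and so free of library scaling, was 0.338 ± 0.0125 in wild type and 0.424 ± 0.0139, 0.544 ± 0.0249 and 0.598 ± 0.0145 in green, green-white and white leaves (SD, n = 3). It ran from 0.328 to 0.352 in the wild-type libraries, 0.414 to 0.440 in green leaves, 0.522 to 0.571 in green-white leaves and 0.583 to 0.612 in white leaves, without overlap. No test was run on this ratio.

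NBR1 (AT4G24690, chr4:12741032-12744670, plus strand) overlaps a gene on the other strand, AT4G24700, over a short stretch of its 3639 bases. That gene stood at 5.7 CPM in wild type and fell to 1.09 CPM in white leaves, so its level was far below that of NBR1 and moved the other way. Counting was not stated to use strand, and the reads of the overlap cannot be assigned from these tables.

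ATG8H (AT3G06420, chr3:1954990-1956397, minus strand; 5 exons) was measured at 8.07, 7.41 and 8.38 CPM in wild type, 10.5, 10.3 and 10.5 in green leaves, 19.8, 23.4 and 20.3 in green-white leaves and 25.4, 25.97 and 26.6 in white leaves. As with NBR1, the groups followed the order wild type, green, green-white, white without overlap. Over wild type it rose by 0.39 ± 0.08 in green (edgeR adjusted p = 1.8e-04), 1.41 ± 0.07 in green-white leaves (9.4e-18) and 1.71 ± 0.07 in white leaves (1.5e-20). The latter 2 were the largest log2 changes among the 10 genes in those comparisons. Its largest step lay between green and green-white leaves, at 1.02 ± 0.07 (edgeR adjusted p = 2.0e-14), against 0.30 ± 0.06 from green-white to white (2.4e-05). No gene overlaps ATG8H in the annotation.

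ATG8I (AT3G15580, chr3:5273526-5275095, minus strand), the other gene with no codon after the glycine, did not move with ATG8H. It was measured at 48.0, 45.3 and 45.6 CPM in wild type and at 35.9, 37.7 and 40.6 in white leaves, without overlap. The fall was −0.28 ± 0.05 (edgeR adjusted p = 2.1e-06), but the white difference was 0.01 with library totals alone and 0.17 in the authors' mean TPM. Green leaves stood at 0.01 ± 0.05 (0.89). Green-white leaves stood at −0.11 ± 0.05 (0.030), a call that was lost or reversed in 13 of 19 alternative settings, among them DESeq2 and 9 of the 12 fits that left out 1 library. ATG8I overlaps AT3G15578 on the opposite strand over 183 bases, and that gene was not listed in the tables.

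The 250 bases before the annotated gene starts are shown for ATG8H and NBR1, which rose together, and for ATG8I, which did not (RefSeq annotation of TAIR10.1, 5′ to 3′ on the gene's strand). Capitals mark TGACG, or CGTCA where it lies on the other strand, the core letters of sites bound by TGA-type bZIP factors.
ATG8H (chr3:1956398-1956647, minus strand): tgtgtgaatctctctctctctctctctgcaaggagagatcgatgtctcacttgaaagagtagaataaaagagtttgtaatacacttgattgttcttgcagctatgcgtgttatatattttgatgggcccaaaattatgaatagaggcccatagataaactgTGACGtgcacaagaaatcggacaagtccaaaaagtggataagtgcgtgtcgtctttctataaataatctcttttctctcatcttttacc
ATG8I (chr3:5275096-5275345, minus strand): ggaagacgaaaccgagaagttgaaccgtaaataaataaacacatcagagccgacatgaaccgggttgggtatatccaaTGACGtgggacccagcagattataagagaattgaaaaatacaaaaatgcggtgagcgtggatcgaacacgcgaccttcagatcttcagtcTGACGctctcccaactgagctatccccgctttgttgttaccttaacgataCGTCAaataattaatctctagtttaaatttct
NBR1 (chr4:12740782-12741031, plus strand): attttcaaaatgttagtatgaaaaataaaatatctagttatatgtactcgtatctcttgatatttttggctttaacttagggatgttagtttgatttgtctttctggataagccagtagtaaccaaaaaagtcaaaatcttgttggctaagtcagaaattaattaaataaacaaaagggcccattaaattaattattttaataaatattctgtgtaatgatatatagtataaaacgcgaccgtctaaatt
TGACG, searched on both strands, lay in the windows of 6 of the 10 genes, ATG8A, ATG8E, ATG8F, ATG8G, ATG8H and ATG8I, and in 18.6% of 27443 windows of the same length. ATG8H held 1 match, 89 bases before the gene start, ATG8I held 3 and NBR1 none, so the letters were present in genes that rose and in genes that fell. The other motifs searched on both strands were CACGTG (0 of 10 genes, 6.49% of all windows), TTGACC (1 of 10, 12.2%), TTGACT (1 of 10, 19.1%) and GATAA (5 of 10, 54.9%). No motif searched contains another. A match is a run of letters and not a shown binding site.

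ATG8A (AT4G21980, chr4:11655562-11657034, plus strand) was measured at 21.4, 26.5 and 23.9 CPM in wild type, 30.3, 28.8 and 25.1 in green leaves, 33.4, 32.5 and 29.2 in green-white leaves and 42.6, 40.3 and 41.7 in white leaves. Green leaves overlapped wild type and green-white leaves, and white leaves stood above all others. The rises over wild type were 0.23 ± 0.07 in green (edgeR adjusted p = 0.0047), 0.41 ± 0.07 in green-white (2.2e-06) and 0.80 ± 0.06 in white leaves (6.3e-13). ATG8A overlaps APR3, an adenosine-phosphosulfate reductase gene of sulfate assimilation, on the opposite strand over 27 bases. APR3 moved the other way, from 132 CPM in wild type to 21.9 CPM in white leaves.

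ATG8B (AT4G04620, chr4:2328442-2330590, minus strand), closest in coding sequence to ATG8C, was called higher over wild type in white leaves. It was measured at 14.2, 15.7 and 16.1 CPM in wild type, 14.4, 13.8 and 13.4 in green leaves, 16.8, 16.3 and 16.8 in green-white leaves and 21.6, 21.0 and 21.5 in white leaves. White leaves stood apart at 0.48 ± 0.06 over wild type (edgeR adjusted p = 4.8e-09), while green-white leaves stood at 0.12 ± 0.06 (0.067). Green leaves were called lower at −0.15 ± 0.06 (0.046), with libraries that overlapped wild type, and that call was lost in 16 of 19 alternative settings.

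ATG8E (AT2G45170, chr2:18624264-18625791, plus strand), the second most abundant ATG8 transcript, rose in both paler classes. It was measured at 57.03, 61.8 and 60.01 CPM in wild type, 64.7, 59.7 and 58.9 in green leaves, 73.6, 73.8 and 68.5 in green-white leaves and 67.4, 68.9 and 67.5 in white leaves. Green-white leaves were 0.27 ± 0.04 above wild type (edgeR adjusted p = 8.1e-07) and white leaves 0.19 ± 0.04 (1.5e-04), both without overlap with wild type. Green-white and white leaves differed by −0.08 ± 0.04 (0.069), and that difference was called in 10 of 19 alternative settings.

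ATG8F (AT4G16520, chr4:9306339-9308538, minus strand) moved in opposite directions across the mutant's leaves with TMM scaling. It was measured at 171, 174 and 170.2 CPM in wild type, 184, 190.0 and 180.1 in green leaves, 162, 155 and 152 in green-white leaves and 136, 133 and 141 in white leaves, and no group overlapped another. Green leaves stood 0.11 ± 0.03 above wild type (edgeR adjusted p = 0.0058), green-white leaves 0.14 below it (−0.14 ± 0.03, 4.7e-04) and white leaves at −0.33 ± 0.03 (1.5e-10). With the libraries scaled by their totals alone, the green-white difference turned to 0.12 and the white one shrank to −0.03, which was not called.

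ATG8C (AT1G62040, chr1:22932760-22934549, plus strand) showed lower values in each class with TMM scaling. It was measured at 28.5, 31.5 and 28.6 CPM in wild type, 26.4, 28.2 and 26.1 in green leaves, 26.3, 24.2 and 22.0 in green-white leaves and 20.7, 22.0 and 21.6 in white leaves. The fall was −0.46 ± 0.06 in white (edgeR adjusted p = 1.7e-08) and −0.29 ± 0.06 in green-white leaves (4.0e-05). With library totals alone these were −0.17 and −0.04, the latter not called. In the authors' mean TPM they were −0.0 in white and 0.08 in green-white leaves, so the fall was not seen there. The green call (−0.13 ± 0.06, adjusted p = 0.046) was lost in 14 of 19 alternative settings.

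ATG8G and ATG8D had the fewest calls of the 10 genes, 3 and 2 of 6 comparisons. ATG8G (AT3G60640, chr3:22415751-22417548, plus strand), the lowest member, was measured at 6.95, 7.12 and 7.06 CPM in wild type and 5.85, 6.40 and 5.77 in white leaves, a fall of −0.23 ± 0.09 (edgeR adjusted p = 0.019) that was not called with DESeq2, turned to 0.06 with library totals alone, and was lost without wild type B or C or white A or C (0.055 to 0.065). ATG8D (AT2G05630, chr2:2082894-2084905, minus strand) was measured at 19.1, 20.7 and 19.8 CPM in wild type and 19.5, 22.1 and 21.7 in white leaves. Each mutant class overlapped wild type for ATG8D. Its differences from wild type were −0.13 ± 0.06, 0.08 ± 0.06 and 0.09 ± 0.06 in green, green-white and white leaves (edgeR adjusted p = 0.062, 0.20 and 0.15). Green-white and white leaves lay above green leaves without overlap, by 0.21 ± 0.06 and 0.22 ± 0.06 (0.0022 and 0.0011). White leaves without library A gave a call for ATG8D (adjusted p = 0.032).

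**Figure D2:**
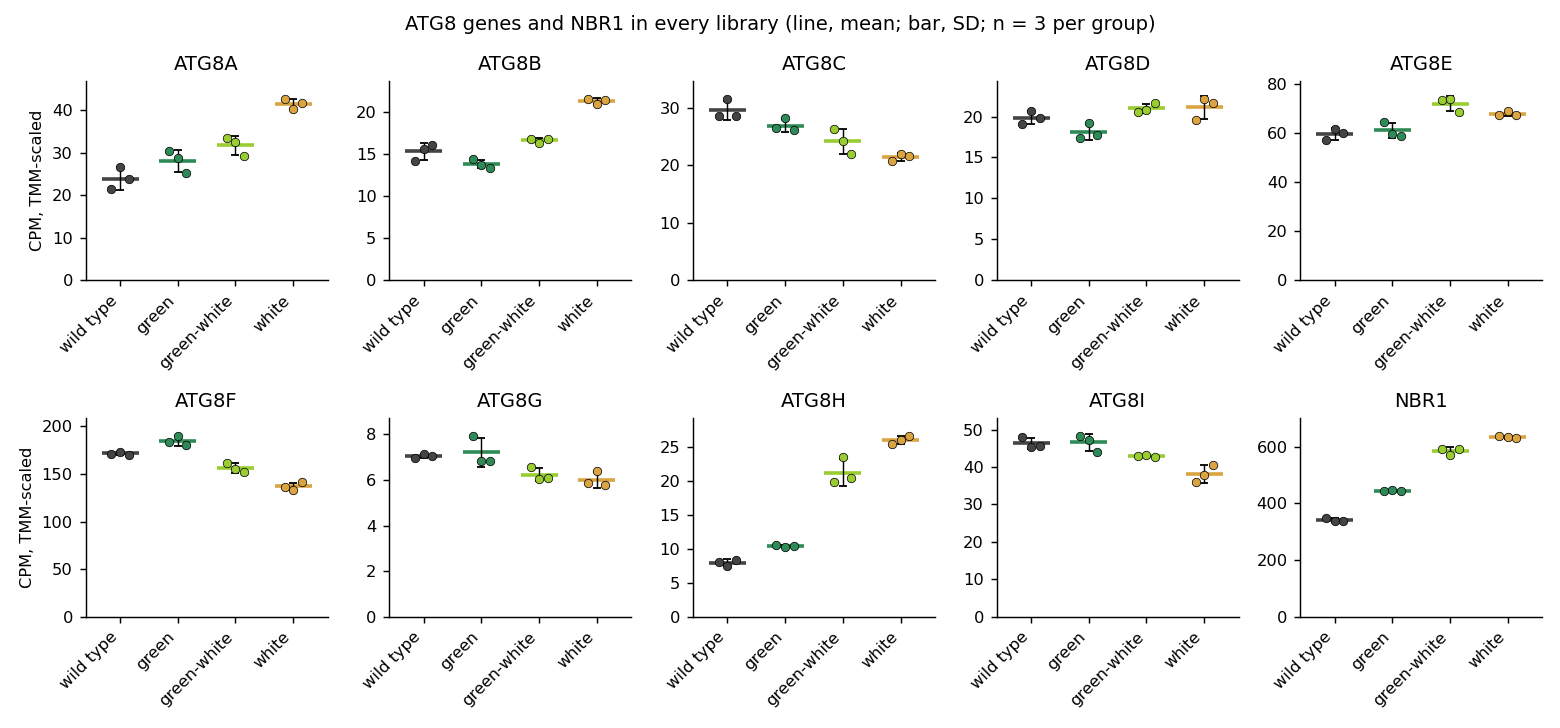
TMM-scaled CPM (y axis, from 0) of the 9 ATG8 genes and NBR1 in each of the 3 libraries of the 4 leaf groups (x axis), as points with the group mean (line) and SD (bar). NBR1 and ATG8H climb from wild type to white leaves without overlap, whereas ATG8F is highest in green leaves and lowest in white leaves.

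Counted together, 4 of the 10 genes were called higher and 2 lower in green leaves over wild type at an adjusted p under 0.05, in a comparison that called 58.3% of 19424 tested genes, 28.7% higher and 29.6% lower. In green-white leaves 4 were higher and 3 lower, against 72.9% of all genes called (34.1% higher, 38.8% lower). In white leaves 5 were higher and 4 lower, against 79.9% of all genes (39.9% higher, 40.0% lower). Without overlap with wild type, 3 genes were higher and 1 lower in green leaves (29.8% and 31.7% of all genes), 5 higher and 4 lower in green-white leaves (35.1% and 39.6%), and 5 higher and 4 lower in white leaves (40.7% and 40.5%). These shares are near the background, so the counts do not set the 10 genes apart from other genes. The median log2 fold change of the 10 genes was 0.03, 0.10 and 0.14 in green, green-white and white leaves, and that of all tested genes −0.008, −0.035 and −0.001. The 3 comparisons share the wild-type libraries.

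**Figure D3:**
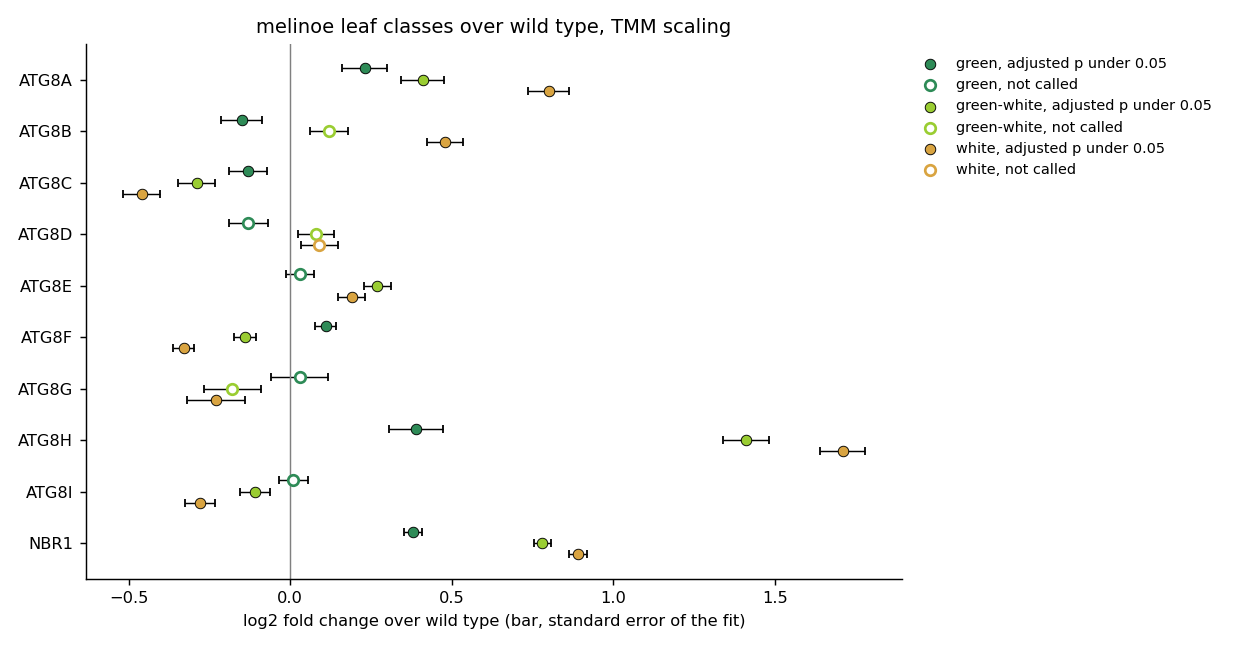
Log2 fold change over wild type (x axis) of each gene (y axis) in green, green-white and white melinoe leaves, as points with the standard error of the fit (bars); filled points were called at an adjusted p under 0.05. ATG8H, NBR1 and ATG8A lie to the right of 0 in all 3 leaf classes, and ATG8C lies to the left in all 3.

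The direction of the small falls changed with the scaling of the libraries. The top 100 genes by count held 31.8% of the counts of wild type and 29.6, 20.6 and 17.7% of those of green, green-white and white leaves. The TMM factors followed this divide, at 0.903 to 0.929 for wild type and green leaves against 1.08 to 1.12 for both paler classes. With library totals alone, the median of all genes stood over wild type at 0.22 in green-white leaves and at 0.29 in white leaves on the log2 scale, and in the authors' mean TPM at 0.29 and 0.41. Without factors, 8 of the 10 genes were called higher and 0 lower in green-white leaves (all genes, 10320 higher and 4436 lower, against 6624 and 7534 with TMM), and 6 higher and 1 lower in white leaves (all genes, 11073 and 5123, against 7749 and 7772). A scaling factor shifts all genes of a library alike, so values taken from the median of all genes differ little between scalings by construction, and are given only to place the genes in white leaves over wild type. NBR1 lay 0.89 to 0.92 above that median, ATG8H 1.71 to 1.77 and ATG8A 0.79 to 0.85, while ATG8F lay at −0.33 to −0.29, ATG8C at −0.47 to −0.41, ATG8I at −0.28 to −0.24 and ATG8G at −0.23 to −0.19.

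**Figure D4:**
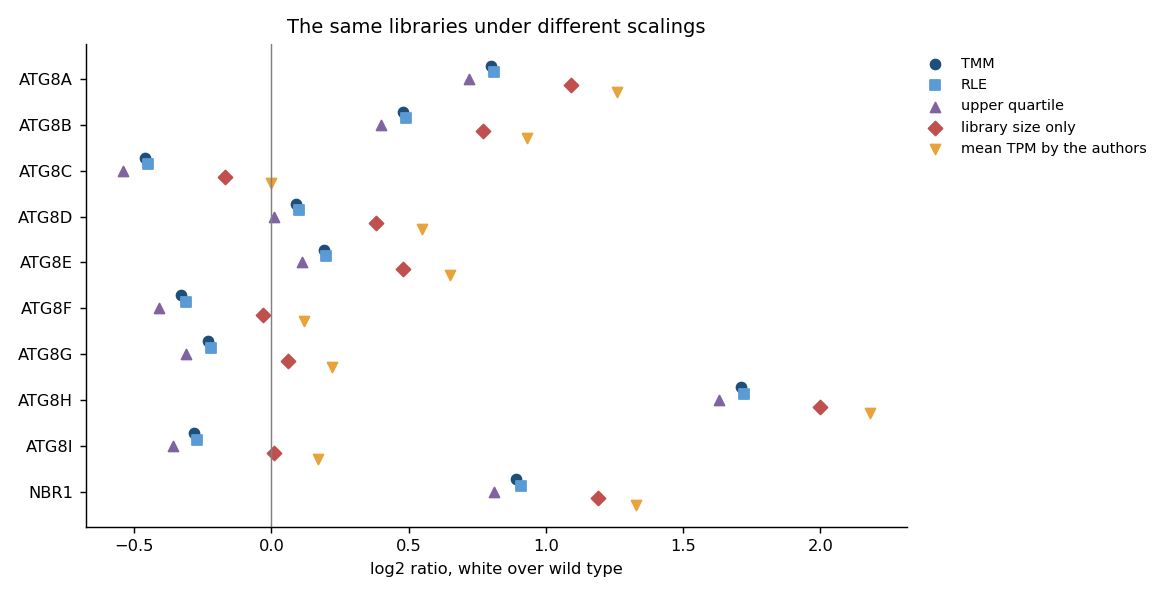
Log2 ratio of white melinoe leaves over wild type (x axis) for each gene (y axis) with TMM, RLE, upper-quartile and library-size scaling of the counts and with the authors' mean TPM. All markers of ATG8H, NBR1, ATG8A and ATG8B lie above 0 in each scaling, and those of ATG8F, ATG8G and ATG8I lie on both sides of 0. Those of ATG8C run from −0.54 with upper-quartile factors to −0.0 in the authors' mean TPM.

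Between the mutant's own leaf classes all 10 genes were called in white against green leaves, 6 higher and 4 lower, where 72.6% of all genes were called (36.3% in each direction). ATG8H was 1.32 ± 0.06 higher (edgeR adjusted p = 5.5e-18), ATG8B 0.62 ± 0.06 (3.0e-11), ATG8A 0.56 ± 0.06 (1.2e-09) and NBR1 0.51 ± 0.03 (2.4e-17). ATG8D and ATG8E were higher by 0.22 ± 0.06 and 0.15 ± 0.04. ATG8F was lowest at −0.43 ± 0.03 (2.8e-13), followed by ATG8C at −0.33 ± 0.06, ATG8I at −0.29 ± 0.05 and ATG8G at −0.26 ± 0.09. With library totals alone ATG8C, ATG8G and ATG8I lost their calls. In green-white against green leaves the count was also 6 higher and 4 lower, where 59.5% of all genes were called (29.6% higher, 29.9% lower). That split was 6 higher and 2 lower with RLE factors, 6 and 1 with DESeq2, and 7 and 0 with library totals alone (all genes, 10627 higher and 2653 lower). The calls of ATG8A, ATG8C, ATG8G and ATG8I there were lost without 1 or more single libraries. White against green-white leaves gave 4 higher and 3 lower, where 64.3% were called (33.5% higher, 30.8% lower), with ATG8A at 0.39 ± 0.06 and ATG8B at 0.36 ± 0.05 the largest rises and ATG8F at −0.19 ± 0.03 and ATG8I at −0.17 ± 0.05 among the falls.

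Of 33 other genes of the core autophagy machinery, 32 were tested, and 18 were higher, 4 lower and 10 not called in white leaves over wild type, where 39.9% of all genes were higher and 40.0% lower. In green-white leaves 16 were higher and 2 lower (all genes, 34.1% and 38.8%), and in green leaves 13 were higher and 4 lower (28.7% and 29.6%). With library totals alone 30 were higher and 0 lower in green-white leaves (all genes, 10320 and 4436). In white leaves 30 were then higher and 1 lower (all genes, 11073 and 5123). Upper-quartile factors narrowed the split, to 8 higher and 5 lower in green leaves (all genes, 4678 and 6593). They gave 14 higher and 6 lower in green-white leaves (5654 and 8626) and 14 and 6 in white leaves (6870 and 8722). No test compared these lists with other genes.

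Among the 9 genes that process ATG8 and attach it to lipid, 3 were higher, 1 lower and 5 not called in white leaves, with a median of 0.08, so fewer were called than the 79.9% of all genes. ATG7, the activating enzyme of ATG8, rose from 12.6 CPM in wild type to 16.0, 19.6 and 27.8 CPM in green, green-white and white leaves, by 0.35 ± 0.07, 0.64 ± 0.06 and 1.15 ± 0.06 on the log2 scale (edgeR adjusted p = 5.1e-05, 1.5e-10 and 1.7e-17). ATG10, the conjugating enzyme of ATG12, and ATG12A rose by 0.29 ± 0.10 and 0.26 ± 0.07 in white leaves. ATG3, the conjugating enzyme of ATG8, fell by 0.11 on the log2 scale (SE 0.04, adjusted p = 0.016).

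In the ATG1 kinase complex, which starts autophagy, 4 of 8 genes were higher, 1 lower and 3 not called in white leaves, and in green leaves 0 were higher and 2 lower (all genes, 39.9% higher and 40.0% lower in white, 28.7% and 29.6% in green leaves). ATG1T and ATG1B, forms of the kinase, rose by 0.49 ± 0.08 and 0.48 ± 0.06 in white leaves, and the scaffold gene ATG11 by 0.36 ± 0.04, with fractional counts, and ATG1A by 0.16 ± 0.05. ATG13A, a regulatory subunit, was lower by 0.14 on the log2 scale (−0.14 ± 0.05).

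The genes for membrane delivery had the highest median of the 4 machinery groups in green-white leaves, 0.48, with 7 of 9 higher and 0 lower (all genes, 34.1% and 38.8%). In white leaves 7 were higher and 1 lower, with a median of 0.23 (all genes, 39.9% and 40.0%). ATG18F, a phosphoinositide-binding protein, rose by 1.09 ± 0.04 in white leaves (edgeR adjusted p = 8.8e-22), ATG18H by 0.63 ± 0.05 and the lipid-transfer protein gene ATG2 by 0.62 ± 0.05, while ATG18D fell, at −0.69 ± 0.10 (2.3e-07). In the phosphatidylinositol 3-kinase complex 4 of 6 genes were higher and 1 lower in white leaves, against the same shares of all genes, led by VPS15 at 0.87 ± 0.05, whose counts were fractional, and ATG14A at 0.69 ± 0.08, then ATG14B at 0.43 ± 0.05 and ATG6 at 0.27 ± 0.05, with VPS38 at −0.25 ± 0.08.

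**Figure D5:**
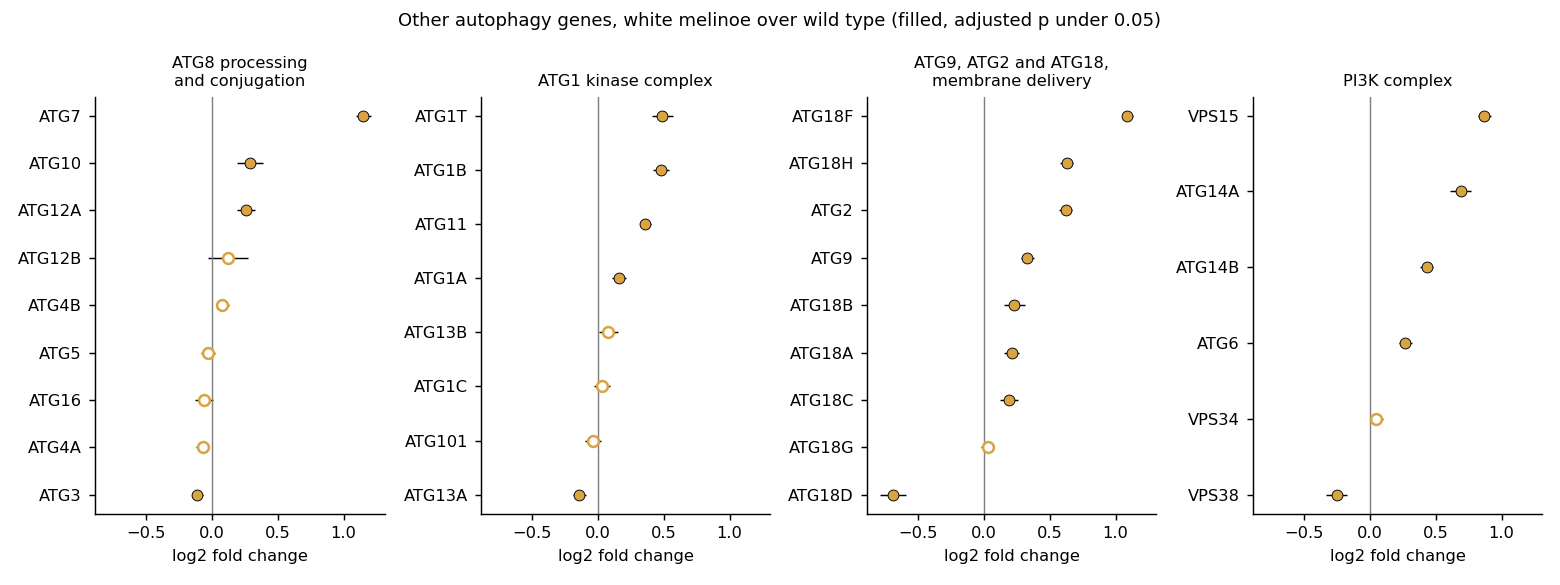
Log2 fold change of white melinoe leaves over wild type (x axis) for the 32 tested genes of the core autophagy machinery (y axis) in 4 functional groups, as points with the standard error of the fit (bars); filled points were called. ATG7 at 1.15, ATG18F at 1.09 and VPS15 at 0.87 lead their groups, and ATG18D lies lowest at −0.69.

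NBR1 was compared with 11 other receptors and ATG8-binding proteins, of which 7 were higher, 2 lower and 2 not called in white leaves, with a median of 0.20 (all genes, 39.9% higher and 40.0% lower). TSPO, a membrane protein that binds ATG8 and carries haem to degradation, rose from 0.413 CPM in wild type to 8.37 CPM in white leaves, by 4.33 ± 0.16 (edgeR adjusted p = 8.7e-22). RPN10, the receptor for inactive proteasomes, rose from 65.1 to 115 CPM, by 0.82 ± 0.04 (1.0e-19), with 0.39 ± 0.04 in green and 0.62 ± 0.04 in green-white leaves. DSK2B, a ubiquitin-binding receptor with fractional counts, rose by 0.45 ± 0.03. ATI2, an ATG8-binding protein of the endoplasmic reticulum and plastid bodies, fell, at −0.43 ± 0.04, and so did ORM1, at −0.33 ± 0.05.

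Among 10 regulators of autophagy, from the SnRK1 and TOR kinases and with TGA9 included, 6 were higher and 2 lower in white leaves. Of all genes 39.9% were higher and 40.0% lower. TOR, the kinase that represses autophagy, rose by 0.47 ± 0.06, and the SnRK1 subunit gene SNF4 by 0.26 ± 0.04. KIN10, the SnRK1 catalytic subunit that promotes it, fell, at −0.25 ± 0.04, and LST8-1 of the TOR complex stood at −0.29 ± 0.04. TGA9, a bZIP factor reported to activate autophagy genes in Arabidopsis, was measured at 0.206 CPM in wild type and 0.581 CPM in white leaves, a low level, with a log2 change of 1.47 ± 0.38 (edgeR adjusted p = 7.7e-04).

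Of 8 starvation and senescence markers 6 were higher and 1 lower in white leaves, with a median of 1.72 (all genes, 39.9% higher and 40.0% lower). In green leaves 3 were higher and 4 lower, with a median of −0.23 (all genes, 28.7% and 29.6%). DIN2, a dark-inducible glucosidase, rose from 0.826 CPM in wild type to 11.3, 54.1 and 229 CPM in green, green-white and white leaves. DIN11, another dark-inducible gene, went from 1.83 CPM to 83.1, 152 and 13.8 CPM in the same order. ASN1, the asparagine synthetase induced by sugar starvation, stood at 243, 67.6, 398 and 847 CPM in wild type, green, green-white and white leaves. A link of these markers to NBR1 or the ATG8 genes was not tested. SAG12, a senescence protease, stood at 0.66 CPM in wild type and 4.91 CPM in white leaves (2.89 ± 0.18, edgeR adjusted p = 1.4e-15), and the senescence factor NAP was lower, at −0.72 ± 0.05.

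The genes whose profiles were most like NBR1 over the 12 libraries were BCB, ACS2, AtCDC48B and CSD2 (Pearson r of log2 CPM 0.997 each) and CSLD2 (0.996). BCB, a blue copper-binding protein, stood at 278, 697, 1510 and 1900 CPM in wild type, green, green-white and white leaves, so its level spanned a wider range than that of NBR1. For ATG8F, the ATG8 gene with the highest mean level per kb, they were MTACP-1 and PnsB5 (0.984 each), CDI and KEA1 (0.981 each) and ATSPS4F (0.980). PnsB5, a subunit of the chloroplast NADH dehydrogenase-like complex, stood at 93.5, 125, 64.0 and 37.9 CPM in that order of groups. The 12 libraries form 4 groups and share their scaling, so these values describe mostly the shape over 4 group means.

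In the authors' deposited table NBR1 had a log2 fold change over wild type of 0.39 in green leaves, 0.82 in green-white leaves and 0.90 in white leaves. ATG8H had 0.39, 1.44 and 1.71 in the authors' deposited table, and ATG8F 0.12, −0.09 and −0.31. For ATG8G in white leaves the authors' deposited table gave −0.22 with a q-value of 0.15, and for ATG8B in green leaves −0.13 with a q-value of 0.31.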

How the data were processed

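Polyadenylated RNA of 12 leaf samples was sequenced from strand-specific libraries on a DNBSEQ platform, per the labels' protocols. SOAPnuke 1.5.2 and HISAT2 2.0.4 are named with TAIR10 in the labels' design text, and Bowtie2, RSEM and DESeq2 in the submitters' processing notes, without versions or roles. How reads were assigned to genes, by which annotation and with which strand setting, is not given in the sources used here. Per the file headers the authors deposited 3 tables with read counts per library, mean TPM per group, their log2 fold change over wild type, and its p-value with a q-value. Of the deposited counts, which are estimated counts, 92.8% were whole within 1e-6.

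The tables hold 25169 genes, 23214 of them in all 3, and 9750 missing values were set to 0. Counts were rounded and tested in R 4.3.3 with edgeR 4.0.16: TMM factors, its low-count filter (19424 genes left), and quasi-likelihood fits with 1 mean per group over the 12 libraries (8 residual degrees of freedom), two-sided, with Benjamini-Hochberg adjustment over all tested genes and calls at an adjusted p under 0.05. Fold changes are log2 ± standard error of the fit. The workflow was tested on simulated data with few changed genes, so that test does not probe the choice of scaling. Chi-square values of library pairs within a group were 1.57 to 3.86 per gene where sampling alone gives about 1, so each library counted once.

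Columns carry letters and labels carry numbers, so columns were matched to groups only, 1 measure per table, and 18 columns of TPM per library were not used. Levels between genes, planned in those TPM values, were therefore taken in TMM-scaled CPM per kb of the longest transcript. All gene identifiers matched TAIR10.1. Reference tables of protein sequence were not used here. The members and lists were chosen with earlier results of these data known. Named genes are all members; per other list, up to 4 called genes of largest change in white leaves over wild type and up to 2 in the other direction; and the 5 genes with symbols, at least 5 CPM and the highest Pearson r of log2(CPM + 0.5) with NBR1 or with the most abundant ATG8 gene. Alternatives were RLE, upper-quartile or no scaling factors, no filter, DESeq2 1.42.0, the compared groups alone, a replicate block, and leaving out each library. Precision is limited by 3 libraries per group.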

Additional observations from a re-analysis of the deposited data

Results flagged for a closer look

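With TMM factors, the effect of melinoe on ATG8B and ATG8F over wild type had opposite signs in different leaf classes. The difference between the classes was itself called. For ATG8B, green leaves stood at −0.15 and white leaves at 0.48 on the log2 scale, and white against green leaves gave 0.62 ± 0.06 (edgeR adjusted p = 3.0e-11). Under all alternatives this difference ran from 0.58 to 0.90. The green call of ATG8B over wild type was lost in 16 of 19 alternatives. For ATG8F, green leaves stood at 0.11, green-white at −0.14 and white at −0.33. The green call was lost with upper-quartile factors, at 0.06 (edgeR adjusted p = 0.11). Green-white against green leaves gave −0.24 ± 0.03 (1.3e-07), and white against green leaves −0.43 ± 0.03 (2.8e-13). The green-white difference was −0.01 and not called with library totals alone, and the white difference ran from −0.47 to −0.16 under all alternatives. In the authors' mean TPM, green-white against green leaves gave 0.09 and white against green leaves −0.01. Over wild type, ATG8F had no change of sign there, at 0.13, 0.22 and 0.12 in green, green-white and white leaves.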

How the results depend on the processing

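Calls of NBR1, ATG8H and ATG8A over wild type were kept in all 19 alternatives in each leaf class. Over 60 pairs of gene and comparison, 1029 of 1140 alternatives kept direction and side of the threshold, 78 lost a call, 25 gained one and 8 reversed, all 8 with library totals alone (an alternative chosen after seeing the data). These were ATG8F (0.12) and ATG8I (0.14) in green-white over wild type, ATG8G (0.06) and ATG8I (0.01) in white over wild type, ATG8C (0.08), ATG8G (0.02) and ATG8I (0.11) in green-white over green, and ATG8G (0.01) in white over green. With library totals alone the machinery calls rose from 18 to 30 in green-white over wild type and from 14 to 27 in green-white over green. The log2 ratio of the summed ATG8 level over wild type, 0.095 in green-white and 0.071 in white leaves per kb, became 0.465 and 0.537 with the authors' mean TPM and, in white leaves, −0.003 without division by length (both chosen after seeing the data). Leaving out 1 library reversed 0 of 720 results, ended 48 calls and made 13. The called members ranged over all alternatives from 4 to 6 in green, 6 to 8 in green-white and 7 to 9 in white leaves over wild type.

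No pairing of the libraries was known: deviations of libraries with the same letter correlated by −0.13 to 0.09, and a replicate block by letter left 6, 7 and 9 members called in green, green-white and white leaves over wild type. Under this block ATG8B lost its green call (adjusted p = 0.053). ATG8G, the member with the lowest depth, at 5.77 to 7.12 CPM in white leaves and wild type, had a standard error of 0.09 there.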
